A study of Mesocricetus auratus with 10 samples.

Results

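Genes for the factors that carry out protein synthesis, the eukaryotic initiation factors (eIFs) and elongation factors (eEFs), and for the aminoacyl-tRNA synthetases, were compared between livers of hamsters on a high fat diet and a pool of liver RNA from hamsters on a standard diet. The genes were taken by name: every probe whose gene name starts with EIF or EEF and a digit, is a letter followed by ARS or ARS2, or is EPRS. That gave 96 of the 14435 named genes on the array, and each was represented by its brightest probe. All 96 passed the filter on dim probes, out of 13927 named genes that did. Of the 96, 4 genes (EIF2C1 to EIF2C4) match by name only: they code for Argonaute proteins of RNA silencing and were kept apart in the counts by role.

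The animals were golden hamsters (Mesocricetus auratus), recorded as male. The 10 livers of the high fat diet (HFD) group were each hybridised against 1 common RNA, pooled from the livers of 10 hamsters on the standard diet (STD). Each HFD animal had 2 two-colour Agilent arrays with the dyes exchanged, 20 arrays in all. Values are log2 ratios of HFD over the pool, averaged over an animal's arrays, so that a positive value means more RNA in the HFD liver. Because the STD livers were pooled, the spread between STD animals was not measured, and each p tests only whether 10 HFD animals differ from that one pool. In a whole liver, fewer cells of a type and less RNA per cell cannot be told apart.

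Translation starts when eIF2 brings the initiator tRNA to the small ribosomal subunit, eIF3 holds the assembly together and the eIF4 proteins load the capped mRNA. eEF1 then delivers the charged tRNAs and eEF2 moves the ribosome along. Synthetases attach each amino acid to its tRNA, with separate enzymes for the cytosol and the mitochondrion. Liver makes most plasma proteins, and phosphorylation of eIF2, sequestration of eIF4E by its binding proteins and phosphorylation of eEF2 are the main brakes on synthesis when amino acids or energy are short. mRNA levels do not measure any of these phosphorylations.

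Probes of one gene did not always move together, and the direction in which a probe's letters read as coding moved with the result. EIF4G2, also called DAP5, an eIF4G relative that starts translation without eIF4E, shows it within 1 gene. Probes of 60 bases from a pair of its assembled transcripts are shown with every stop triplet (TAA, TAG or TGA, in any frame) in capitals, because they were measured in opposite directions:
EIF4G2, first transcript: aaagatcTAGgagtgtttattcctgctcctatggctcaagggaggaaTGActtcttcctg
EIF4G2, second transcript: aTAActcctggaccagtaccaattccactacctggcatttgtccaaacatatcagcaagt
The first probe had a ratio of 0.43 ± 0.22 (SD, n = 10 animals), with all 10 animals above the pool (adjusted p = 4.88e-05, limma). The second had -0.58 ± 0.51, with 2 animals above the pool (adjusted p = 0.00215, limma). The first reads without a stop in 1 frame of the printed strand and in 0 frames of the other strand. The second reads without a stop in 2 frames of each strand, so its stops do not give a direction. The 6 probes of the first transcript lay between 0.25 and 0.50 and were all called higher. The 4 probes of the second lay between -0.58 and -0.17 and were all called lower.

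The direction was then estimated for all named probes with a codon model learned from the probes themselves, and summed over the probes of a transcript. A probe printed in the direction of the mRNA is the one that can pair with the antisense RNA that this type of labelling kit makes. Among the 521 tested probes of the 96 genes, 302 came from transcripts read in the mRNA direction, 100 from transcripts read in the reverse direction, and 119 were undecided. Of the 100 reverse probes 2 were called higher and 77 lower, with a median ratio of -0.30. Of the 302 in the mRNA direction 109 were higher and 76 lower, with a median of 0.03. The same lean was present across the array: 9.44% of 11083 reverse probes were higher and 52.8% lower, against 40.2% and 18.8% of 31090 in the mRNA direction. Open reading frames were also counted without the model. Of 51 member probes with an open frame on the printed strand only, 21 were higher and 12 lower, and of 21 with one on the other strand only, 1 was higher and 11 lower. The split was made after the values were seen and was not tested, and neither was the part of probe direction in any member's result. The direction is therefore given with many of the values below. A value without one may rest on a probe of any direction.

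**Figure D1:**
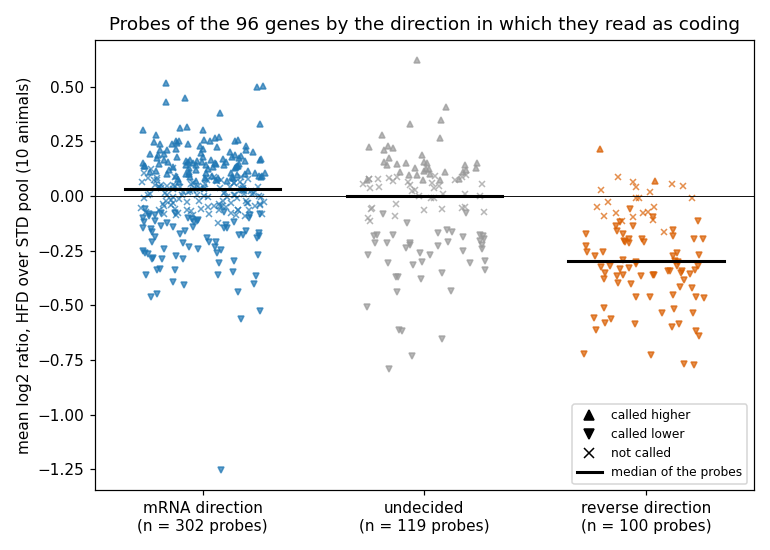
Mean log2 ratio (HFD over STD pool, y axis) of each of the 521 tested probes of the 96 genes, grouped by the direction in which the transcript reads as coding (x axis); triangles mark called probes and crosses those not called, and bars are medians. The 100 reverse probes lie mostly below 0, with a median of -0.30, and the 302 in the mRNA direction lie on both sides.

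With the brightest probe, 28 of the 96 genes were higher in HFD liver, 37 were lower and 31 were not called (limma, Benjamini-Hochberg adjusted p under 0.05 over all 13927 genes). Over all genes 59.9% were called, 31.2% higher and 28.6% lower, so the share of these genes called higher (29.2%) was near the background and the share called lower (38.5%) was above it. Of the 96 genes, 14 were higher and 23 lower with the same sign in all 10 animals, against 16.2% and 15.1% of all genes. Among called genes these were 14 of 28 and 23 of 37, against 2257 of 4350 and 2100 of 3990 over all genes. The median ratio was -0.02 (0.01 over all genes), and the median size without sign was 0.15 (0.11 over all genes). No gene of the 96 reached a doubling or halving.

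The balance between higher and lower differed with probe direction. Among the 49 genes whose brightest probe reads in the mRNA direction, 19 were higher and 13 lower. These shares, 38.8% and 26.5%, lay near the 38.7% and 23.2% of all genes with such a brightest probe. Among the 14 whose brightest probe reads in reverse, 0 were higher and 11 lower (all genes with a reverse brightest probe: 14.6% and 45.5%). The other 33 were undecided, with 9 higher and 13 lower. Their share called lower, 39.4%, was above the 28% of all genes with an undecided brightest probe. Their share called higher was 27.3%, against 29.9%. When the brightest probe in the mRNA direction was taken instead, 61 of the 96 genes had one: 22 were higher and 17 lower, a share of 36.1% and 27.9%, against 38% and 22.6% of the 7659 genes that had such a probe. Their median ratio was 0.02, against 0.04 for all genes with such a probe.

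**Figure D2:**
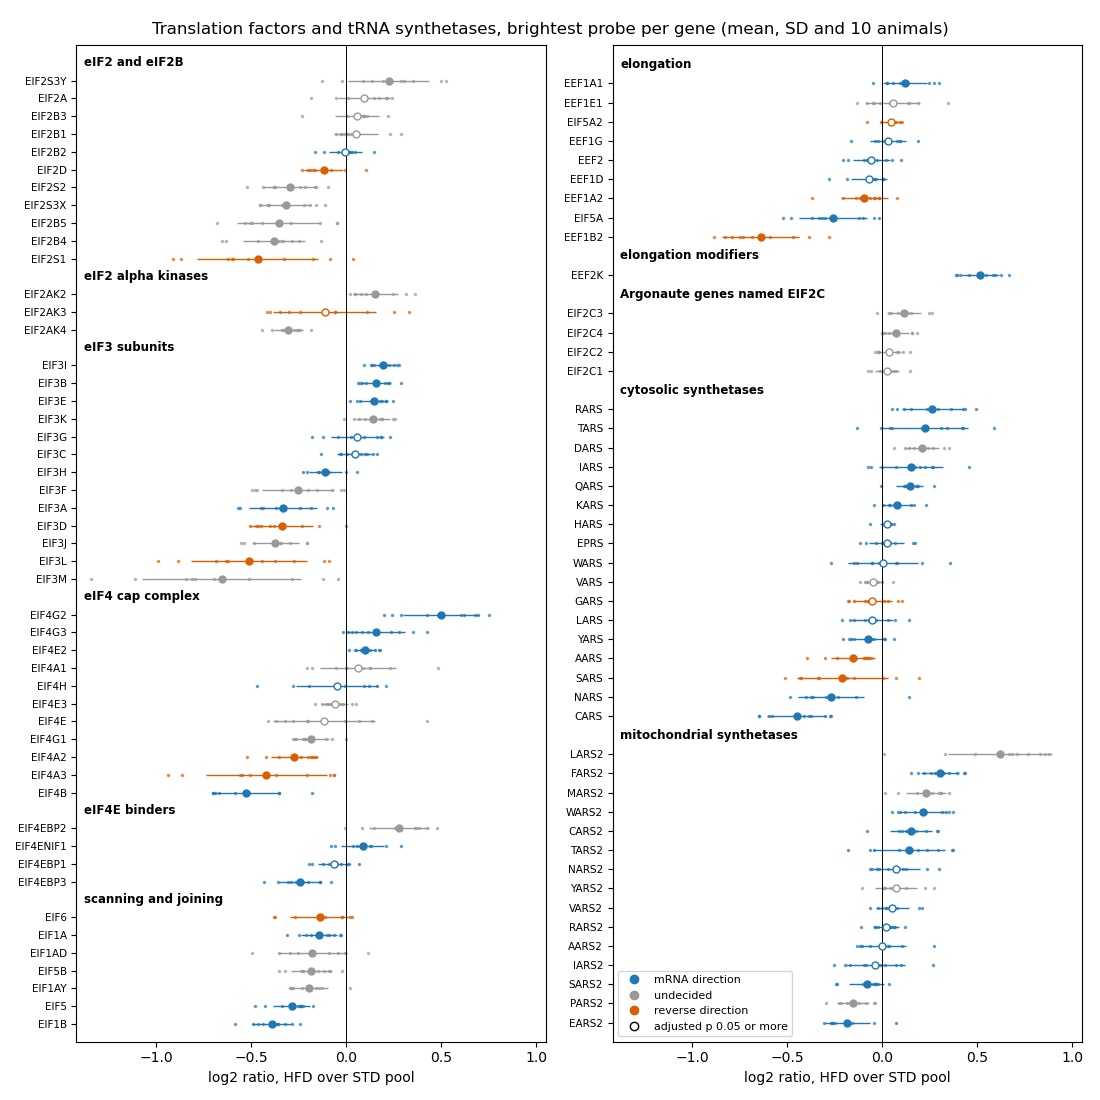
Log2 ratio of HFD over STD pool (x axis) for 95 of the 96 genes by role (y axis), brightest probe; small dots are the 10 animals, large dots the mean, lines 1 SD, filled dots genes called at adjusted p under 0.05, and colours the reading direction of the probe. The 14 orange genes (reverse direction) hold 0 called higher and 11 called lower.

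Several facts of the arrays bear on all values. The 6 arrays that carry animals 5 to 10 in Cy3 stood apart, with an SD of all log ratios of 0.37 to 0.46 against 0.23 to 0.32 on the other 14. The fit on those 14 arrays called 20 of the 96 higher and 28 lower. It was another model than the main fit, with a dye term and animal as a random block. Its arrays with HFD in Cy3 come from animals 1 to 4 only. Those animals therefore weigh more in it than in the mean over 10 animals. Of the 96 genes, 72 had the same sign in both dye orientations. Hepatocyte markers were lower in HFD, 9 of 11 called lower and 1 higher with a median of -0.41 (animal medians -0.96 to -0.19), but the brightest probes of 6 of the 9 read in reverse. Macrophage markers were 5 higher and 3 lower of 8, with animal medians of 0.20 to 0.72, and lymphocyte markers 0 higher and 5 lower of 7, with animal medians of -0.19 to -0.02. Endothelial markers gave 3 higher and 2 lower of 7, stellate cell markers 2 and 1 of 7, and cholangiocyte markers 0 and 0 of 4. The part of cell make-up in the results was not tested.

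Of the eIF2 kinases, which phosphorylate the alpha subunit of eIF2 under stress, EIF2AK4 was the lower one. EIF2AK4, known as GCN2, senses uncharged tRNA when amino acids are scarce. Its ratio ranged from -0.45 through a median of -0.30 to -0.18, so every HFD animal lay below the pool, with animal 1 lowest and animal 5 highest. The mean was -0.30 ± 0.08 (SD, n = 10; 1.23-fold lower; adjusted p = 1.02e-06, limma). All 10 of its probes were called lower: the 5 in the mRNA direction lay between -0.35 and -0.21, the reverse one was at -0.14, and the 14-array fit gave -0.29. EIF2AK2 (PKR), the kinase activated by double-stranded RNA, was higher by 0.15 ± 0.12 in 10 of 10 animals (adjusted p = 0.00251, limma). It has 1 probe, undecided in direction, and on the 14 arrays its value was 0.10 and not called (adjusted p = 0.144). EIF2AK3 (PERK), the kinase of the endoplasmic reticulum, was not called at -0.11 ± 0.27, from a reverse probe, with 3 of 10 animals above the pool. EIF2AK1 was not on the array under that name.

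Of 11 genes grouped with eIF2, 1 was higher and 6 lower (9.1% and 54.5%, against 31.2% and 28.6% of all genes). They are the genes of eIF2, of eIF2B, the factor that reloads eIF2 with GTP, and EIF2A and EIF2D. EIF2A and EIF2D are subunits of neither and were grouped by name. The lower ones were EIF2S1, EIF2S2, EIF2S3X, EIF2B4, EIF2B5 and EIF2D. EIF2S1, the alpha subunit that the kinases phosphorylate, was at -0.47 ± 0.32 (range -0.91 to 0.04, median -0.56, adjusted p = 0.000425, limma). Only animal 3 lay above the pool, and animals 5 to 10 were all at -0.52 or below while animals 1 to 4 were at -0.33 or above. All 6 of its probes were lower, but they read in the reverse direction, and the 14-array value was -0.17. The catalytic eIF2B subunit EIF2B5 was at -0.35 ± 0.22 and EIF2B4 at -0.38 ± 0.16, both below the pool in 10 of 10 animals and both undecided in direction. Their ratios differed by dye: EIF2B4 was at -0.09 with HFD in Cy5 and -0.67 with HFD in Cy3, and EIF2B5 lost its call on the 14 arrays (-0.10, adjusted p = 0.165). EIF2B4 has 1 probe. The 2 further probes of EIF2B5 disagreed, 1 higher at 0.07 and 1 lower at -0.22. The only higher gene was EIF2S3Y, the copy of the gamma subunit on the Y chromosome, at 0.22 ± 0.21 in 8 of 10 animals (adjusted p = 0.00506, limma). Its signal was well above background on 16 of 20 arrays in HFD RNA but on 9 in the pool, so it passed the filter through the group where it is high, and its call is no support for a difference. Its near-identical copy EIF2S3X was at -0.32 ± 0.13, and the probes of such a pair may share signal. Only 4 genes of the group had a probe in the mRNA direction, 2 higher and 1 lower: EIF2B3 at 0.14, EIF2B1 at 0.09 and EIF2S2 at -0.12.

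The 13 subunits of eIF3 were divided, 4 higher and 7 lower (30.8% and 53.8%, against 31.2% and 28.6% of all genes). The higher ones were modest and even across animals. EIF3I, a small WD-repeat subunit, ranged from 0.10 through a median of 0.19 to 0.28 and lay above the pool in every animal (0.19 ± 0.06, adjusted p = 2.25e-05). EIF3B, the scaffold of that module, was at 0.16 ± 0.08 with all 10 of its probes higher, and EIF3E was at 0.15 ± 0.08. EIF3B, EIF3E and EIF3I were all read in the mRNA direction, and EIF3K, the other higher subunit, was undecided.

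Of the lower eIF3 subunits, EIF3H was small in size (-0.11) and the other 6 lay between -0.66 and -0.25. EIF3M had the lowest mean of the 96 genes, -0.66 ± 0.42 (1.57-fold lower; range -1.34 to -0.04, median -0.75; adjusted p = 0.000227, limma). Its animals did not lie close together: animals 5 to 10 were at -0.70 or below and animals 2 and 3 at -0.12 or above. The dye orientations gave -0.36 (HFD in Cy5) and -0.95 (HFD in Cy3), and the 14 arrays gave -0.27. EIF3L followed at -0.51 ± 0.31 and EIF3J at -0.37 ± 0.12, below the pool in every animal, and EIF3D at -0.34 ± 0.16 in 9 of 10. EIF3L and EIF3D rest on reverse probes, EIF3M and EIF3J on undecided ones. EIF3A, the largest subunit, was at -0.33 ± 0.18 on a probe in the mRNA direction (adjusted p = 8.74e-05), and the 8 reverse probes of the gene were all lower. On probes in the mRNA direction 7 subunits were left, 3 higher and 2 lower (EIF3A and EIF3H).

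Of the 11 genes of the cap-binding eIF4 complex and its helicases, 3 were higher and 4 lower. The shares were 27.3% and 36.4%, against 31.2% and 28.6% of all genes. EIF4G2 ranged from 0.20 (animal 3) through a median of 0.54 to 0.75 (animal 9), above the pool in every animal. Its mean was 0.50 ± 0.20 (1.41-fold; adjusted p = 7.29e-06, limma) on the first of the transcripts shown above, and 0.37 on the 14 arrays. Its 10 further probes gave 5 higher and 4 lower, with a median of 0.08. EIF4G3 (0.16) and EIF4E2 (0.10), a relative of the cap-binding protein, were the other higher genes. EIF4B, which stimulates the helicase eIF4A, was lower in every animal, from -0.70 through a median of -0.55 to -0.18. Its mean was -0.53 ± 0.18 (1.44-fold lower; adjusted p = 1.95e-06, limma), and 12 of its 14 further probes were lower as well. EIF4B reads in the mRNA direction. Its size depended on the dye, -0.14 with HFD in Cy5 and -0.91 with HFD in Cy3, and it was -0.31 on the 14 arrays. EIF4A3, the helicase of the exon junction complex, was at -0.42 ± 0.32 from a reverse probe, and -0.13 on the 14 arrays. EIF4E, the cap-binding protein, was not called at -0.12 ± 0.27, but on the 14 arrays it was higher at 0.14 (adjusted p = 0.0271, limma). In the main fit animals 1 to 4, which weigh more on the 14 arrays, lay between -0.01 and 0.43. Animals 5 to 10 lay between -0.41 and -0.20.

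**Figure D3:**
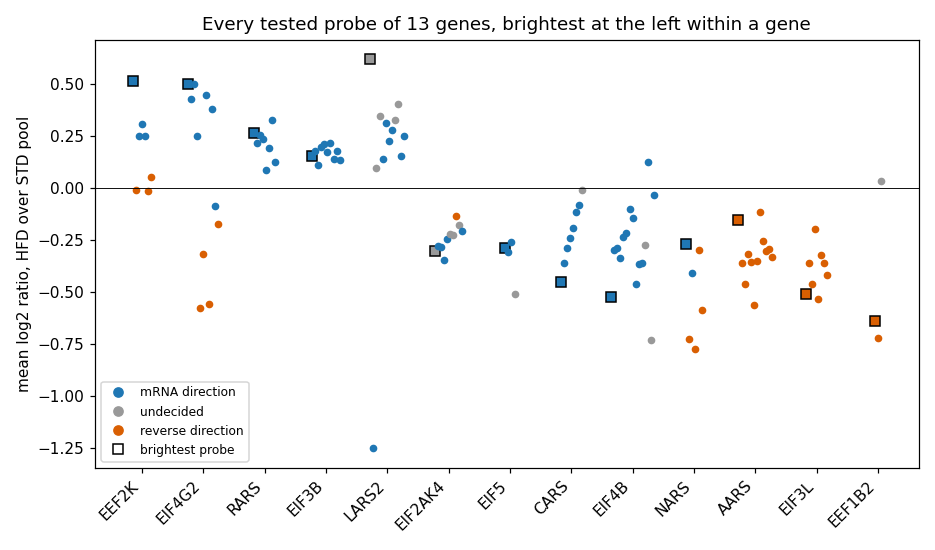
Mean log2 ratio (HFD over STD pool, y axis) of every tested probe of 13 genes (x axis), brightest probe as a square at the left, coloured by reading direction. The probes of EIF2AK4, in every direction, lie below 0 and those of EIF3B, all in the mRNA direction, above it. The called probes of EIF4G2 divide by direction, and 1 probe in the mRNA direction, at -0.09, was not called. The probes of LARS2 spread from -1.25 to 0.62.

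The proteins that bind eIF4E and hold it from the ribosome did not move as a group. EIF4EBP1, the best known of them and a target of mTOR, was not called on its brightest probe (-0.06 ± 0.08, 3 of 10 animals above the pool), but both further probes, also in the mRNA direction, were lower (-0.19 and -0.09). EIF4EBP2, undecided in direction, was higher at 0.28 ± 0.16 (adjusted p = 0.000161, limma) in 9 of 10 animals. Neither of its further probes was higher and 1 was lower. EIF4EBP3 was lower in 10 of 10 animals at -0.24 ± 0.11 (adjusted p = 4.44e-05). EIF4ENIF1, the transporter that carries eIF4E into the nucleus, was at 0.09 ± 0.11 (adjusted p = 0.0448) and was not called on the 14 arrays.

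The 7 genes grouped under start-site scanning and subunit joining were all lower on their brightest probes, against 28.6% of all genes. They include EIF1AD, which was placed in the group by its name only. The group median was -0.18 and was below 0 in each of the 10 animals (-0.38 to -0.06). The brightest EIF1AY probe was lower at -0.20, but its only other probe was higher at 0.14 (adjusted p = 0.00344, limma). Neither was decided in direction. EIF1B, a paralog of the factor that guards start codon choice, ranged from -0.59 through a median of -0.37 to -0.24. All animals lay below the pool, with animal 5 lowest (-0.39 ± 0.10, adjusted p = 5.79e-07, limma). None of its 3 further probes was called, so EIF1B rests on 1 probe. EIF5, which makes eIF2 hydrolyse GTP at the start codon, was at -0.29 ± 0.10 in 10 of 10 animals, and its 3 further probes were also lower. EIF6, which keeps the large subunit from joining early, was at -0.14 ± 0.15 from a reverse probe and 0.01 on the 14 arrays, where it was not called. Of the 4 genes with a probe in the mRNA direction 3 were lower: EIF1A, EIF1B and EIF5. The fourth, the GTPase EIF5B, was at 0.01 on such a probe and at -0.18 on its brightest, undecided one.

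In elongation the gene of the enzyme that brakes the step was higher, while most of the factors themselves were not called. EEF2K, the kinase that phosphorylates and stops eEF2, ranged from 0.39 through a median of 0.52 to 0.67. Every animal lay above the pool, animal 2 highest and animal 5 lowest. The mean was 0.52 ± 0.10 (1.43-fold; adjusted p = 4.74e-08, limma), with 0.41 in Cy5, 0.62 in Cy3 and 0.50 on the 14 arrays. Its 4 probes in the mRNA direction lay between 0.25 and 0.52 and were all higher, and its 3 reverse probes lay between -0.01 and 0.05 and were not called. Its substrate EEF2 was not called at -0.06 ± 0.10, although 6 of its 12 further probes were lower and 1 higher.

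Of the 9 elongation factor genes 1 was higher and 3 lower (11.1% and 33.3%, against 31.2% and 28.6% of all genes). EEF1A1, the tRNA carrier and one of the most abundant messages of a cell, was at 0.12 ± 0.12 (adjusted p = 0.011) in 9 of 10 animals. It was at 0.00 and not called on the 14 arrays, and its further probes gave 1 higher and 1 lower. EEF1B2, a subunit that reloads eEF1A with GTP, was at -0.64 ± 0.20 in 10 of 10 animals (range -0.89 to -0.28, median -0.71; adjusted p = 8.69e-07, limma). Both probes of that transcript read in reverse, and the probe of its other transcript, undecided, was at 0.04 and not called. The partners EEF1D (-0.07 ± 0.09) and EEF1G (0.03 ± 0.10) and the associated EEF1E1 (0.05 ± 0.15) were not called on their brightest probes. Of the further probes, 5 of 6 for EEF1D and 4 of 5 for EEF1G were lower, with medians of -0.22 and -0.15, and 3 of those of EEF1G are in the mRNA direction. EEF1A2, the muscle and nerve form, was at -0.09 ± 0.12 (adjusted p = 0.0429) from a reverse probe and at 0.08, not called, in the mRNA direction. EIF5A, the factor that helps ribosomes through proline stretches, was lower in 10 of 10 animals at -0.26 ± 0.18 (adjusted p = 0.000604), read in the mRNA direction. Its copy EIF5A2 was not called at 0.04 ± 0.05.

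The 17 cytosolic synthetases gave 6 higher and 5 lower, shares (35.3% and 29.4%) near those of all genes (31.2% and 28.6%). RARS, which charges arginine, ranged from 0.05 (animal 8) through a median of 0.27 to 0.49 (animal 2) and was above the pool in every animal. Its mean was 0.26 ± 0.16 (1.20-fold; adjusted p = 0.000286, limma), and 7 of its 8 probes, all in the mRNA direction, were higher. CARS, which charges cysteine, ranged from -0.65 through a median of -0.40 to -0.27 and was below the pool in every animal. Its mean was -0.45 ± 0.16 (1.37-fold lower; adjusted p = 2.55e-06, limma), -0.35 on the 14 arrays, and 5 of its 7 further probes were lower. DARS, for aspartate, was at 0.21 ± 0.09 in 10 of 10 animals with all 6 further probes higher, on a transcript undecided in direction. Its value came mostly from one orientation, 0.02 with HFD in Cy5 and 0.39 in Cy3.

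The cytosolic enzymes were also counted by assembly. Of the 7 measured synthetases of the multi-synthetase complex, a particle of several synthetases and scaffold proteins, 5 were higher (RARS, DARS, IARS, QARS and KARS), 0 lower and 2 not called (EPRS and LARS). Of the 10 that work free of it, 1 was higher (TARS), 5 lower (CARS, NARS, SARS, AARS and YARS) and 4 not called. On probes in the mRNA direction the complex gave 4 higher and 0 lower of 6, and the free enzymes 1 higher and 3 lower of 6. Over all genes 31.2% were higher and 28.6% lower, and on probes in the mRNA direction 38% and 22.6%. AARS, SARS and GARS rest on reverse probes, and none of the complex does. This split was chosen after the values were seen and has no test, and IARS (-0.06 in Cy5, 0.36 in Cy3) and KARS (-0.05 and 0.21) changed sign with the dye. Further probes did not all follow: the only other IARS probe, a reverse one, was lower at -0.35 in 10 of 10 animals, and the 10 further QARS probes gave 3 higher and 1 lower with a median of -0.01. The scaffold AIMP2, undecided in direction, was also higher (0.22 ± 0.08, 10 of 10 animals). So was AIMP1 (0.15 ± 0.08), which was at -0.02 with HFD in Cy5 and 0.32 in Cy3. The scaffold EEF1E1, counted above with elongation, was not called (0.05 ± 0.15, 5 of 10 animals above the pool). EEF1E1 was at -0.15 with HFD in Cy5 and 0.26 in Cy3.

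The 16 mitochondrial synthetases had 7 higher and 3 lower, with a median of 0.07 that was above 0 in 9 of 10 animals. The shares were 43.75% and 18.75%, against 31.2% and 28.6% of all genes. None of the 16 rests on a reverse probe. FARS2, for phenylalanine, ranged from 0.15 through a median of 0.30 to 0.43, above the pool in every animal (0.30 ± 0.10, adjusted p = 4.68e-06, limma; 0.29 on the 14 arrays). Its 3 further probes, all reverse, were not called. MARS2 (0.23 ± 0.11) and WARS2 (0.21 ± 0.12) were higher in 10 of 10 animals. MARS2 has 1 probe, undecided in direction, at 0.07 with HFD in Cy5 and 0.39 in Cy3. All 3 further probes of WARS2 were higher too. EARS2, for glutamate, was the lowest at -0.18 ± 0.12 in 9 of 10 animals (adjusted p = 0.000621). With probes in the mRNA direction only, 5 were higher and 3 lower of 14, one of the lower being the second LARS2 probe shown next.

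LARS2, for leucine, had the highest mean of the 96 genes, 0.62 ± 0.27, but its brightest probes disagreed. Their letters are given because they decide the value:
LARS2, brightest probe: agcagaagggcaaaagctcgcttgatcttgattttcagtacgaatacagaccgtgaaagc
LARS2, next brightest: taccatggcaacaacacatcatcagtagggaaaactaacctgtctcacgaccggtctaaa
The first was at 0.62 in 10 of 10 animals (range 0.01 to 0.87) and the second at -1.25 ± 0.61, below the pool in 10 of 10. They were the 6th and the 24th brightest of 116452 probes on the array. The first depended on dye, 1.04 with HFD in Cy5 and 0.20 in Cy3. From textbook knowledge both resemble 28S ribosomal RNA, on opposite strands. No ribosomal RNA sequence was among the references used here, and this was not tested. The other 10 probes of LARS2 lay between 0.10 and 0.41 and were all higher, 6 of them from 1 transcript read in the mRNA direction.

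**Figure D4:**
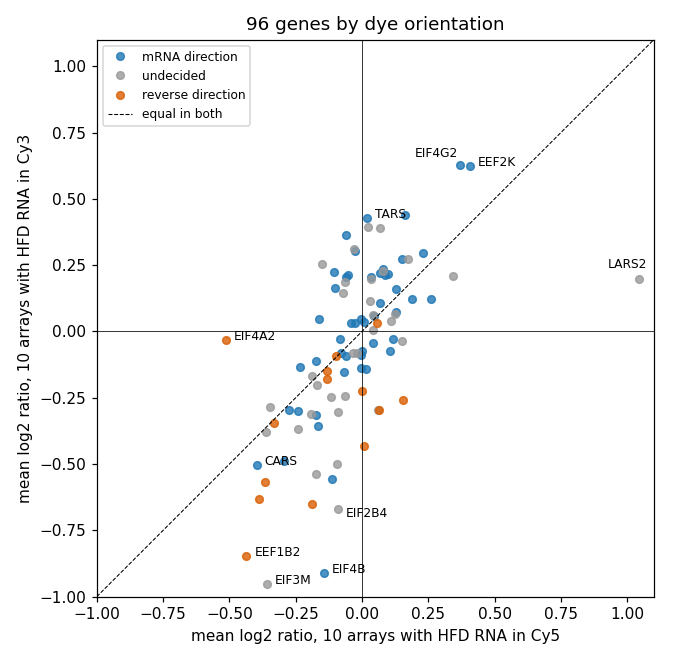
Mean log2 ratio of the 96 genes on the 10 arrays with HFD RNA in Cy5 (x axis) against the 10 with HFD RNA in Cy3 (y axis), coloured by reading direction, with the line of equal values. EEF2K and EIF4G2 lie high in both, CARS low in both, EIF4B is at -0.14 and -0.91, and LARS2 at 1.04 and 0.20.

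Genes that work with these factors were counted on the same scale, on which 31.2% of all genes were higher and 28.6% lower. Of 9 partners of the synthetases 5 were higher and 1 lower. They were led by QRSL1 (0.23, undecided in direction), which makes mitochondrial glutaminyl-tRNA, the tRNA exporter XPOT (0.23) and AIMP2. XPOT was at 0.05 with HFD in Cy5 and 0.40 in Cy3. Of 8 mitochondrial translation factors 4 were higher and 2 lower. The mitochondrial elongation factor GFM1 was higher in every animal (0.47 ± 0.11, adjusted p = 1.86e-07, limma), as were the release factor relative MTRF1L (0.21) and the tRNA carrier TUFM (0.20), and all 4 higher ones were read in the mRNA direction. Of 8 termination and recycling genes 1 was higher and 2 lower. The release factor ETF1 was at 0.31 ± 0.09 on an undecided probe, 0.03 with HFD in Cy5 and 0.59 in Cy3. The reinitiation factor DENR was at -0.28 ± 0.14 in the mRNA direction, -0.09 with HFD in Cy5 and -0.47 in Cy3. The rescue factor HBS1L was at -0.44 ± 0.24 on a reverse probe. Of 5 genes for poly(A)-binding proteins and for proteins that bind them, 0 were higher and 3 lower. The lower ones were the poly(A)-binding PABPC4 (-0.50, reverse) and the partners PAIP2B (-0.28, undecided) and PAIP1 (-0.07). The poly(A)-binding PABPC1 was not called (0.03).

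Of 14 genes that signal to initiation, 5 were higher and 3 lower (35.7% and 21.4%, against 31.2% and 28.6% of all genes). PDCD4, an inhibitor of eIF4A, was at 0.76 ± 0.52, and RPS6KB2, an S6 kinase, at 0.36 ± 0.05, both above the pool in 10 of 10 animals and both from reverse probes. PDCD4 was at 1.22 with HFD in Cy5 and 0.30 in Cy3, and RPS6KB2 at 0.55 and 0.16. DEPTOR, an inhibitor inside the mTOR complexes, was lower in every animal at -0.63 ± 0.07 (adjusted p = 1.32e-09, limma), on an undecided probe. MTOR (-0.07), RPTOR (-0.03), TSC1 (0.01) and TSC2 (-0.04) were not called.

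The integrated stress response, the transcription programme that follows eIF2 phosphorylation, had 5 genes higher and 4 lower of 17. The shares were 29.4% and 23.5%, against 31.2% and 28.6% of all genes. DDIT3 (CHOP), a transcription factor of that programme, was higher in 10 of 10 animals (0.67 ± 0.41, adjusted p = 0.000184, limma) in the mRNA direction. The serine synthesis enzyme PSAT1 (-1.36 ± 0.21) and the glycine enzyme SHMT2 (-0.70 ± 0.29) were lower in 10 of 10 animals, both from reverse probes; SHMT2 was also lower, at -0.33, on a probe in the mRNA direction. Named outside the rule after their values were seen, TRIB3 (0.65), ATF3 (0.38) and ASNS (0.32) were higher, and ATF4 (-0.47), the transcription factor that heads the programme, was lower; ASNS rests on a reverse probe, and TRIB3, ATF3 and ATF4 on undecided ones. All the comparisons above share the same 10 animals and the same pool, so they are not independent of each other. The 2 called Argonaute genes, EIF2C3 (0.12 ± 0.09) and EIF2C4 (0.07 ± 0.07), were higher in 9 of 10 animals and were not called on the 14 arrays.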

How the data were processed

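Spot intensities (mean signal and local background, green and red) were taken from the authors' scanner files, made with Agilent Feature Extraction 10.7.3.1 per the file headers; the deposited intensity values are not normalized. Labelled RNA was made from 100 ng of liver RNA per the labels' protocols. The array holds probes of assembled hamster transcripts, and gene names are those of its design; 69 of the 96 match a symbol of RefSeq's BCM_Maur_2.0 table, 1 a synonym and 26 neither. Dye orientation was taken from the array names, since the labels give both orientations for each sample. The turned ratio of each array correlated positively with the authors' deposited log2 ratios of its animal (r = 0.510 to 0.860), which are centred near 0 (column medians -0.01 to 0.02); limma is named in the submitters' processing notes, and how the authors corrected background and normalized is stated by no source used here.

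Background was corrected with normexp (offset 50) and ratios normalized by loess within each array (limma 3.58.1, R 4.3.3), with control and outlier spots at weight 0. Kept probes were well above background in either RNA on at least 10 of the 20 arrays. The mean over 10 animals was tested against 0 (lmFit, eBayes, two-sided, Benjamini-Hochberg over 13927 genes; probe-level p-values over 62475 probes). On simulated ratios 68% of changes of 0.2 and 100% of 0.4 were recovered, with 7 false calls. The simulated noise was independent and normal, with 200 genes changed. It held no effect of dye, probe direction or the single pool, so it does not measure false calls in the data. The number of arrays limits the precision.

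Probe direction came from codon frequencies fitted by expectation maximisation to the 67058 named probes. A transcript was called when the summed natural log odds passed 4.6. Where probes of 1 transcript were decided singly, 89.5% of 4231 transcripts had 1 direction. Of 784 probe pairs sharing 20 bases with each other's reverse complement, 98.3% were called opposite. The model's score changes sign when a sequence is turned to its reverse complement, so such pairs are called opposite almost by construction. That share does not show that the calls are right.

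Named with values are the 10 highest and 10 lowest called members of 1 sign in all animals, the called extremes of each role, all measured eIF2 kinases, eIF4E binders and elongation factors, and up to 3 called genes of each other list; 1 member is counted but not reported here by name, and further names were chosen after their values were seen, as were the direction fits. The members and lists were chosen with earlier results of these data known. Alternatives covered signals, offset, filter, probe choice, dye, session, slide and each animal left out.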

Additional observations from a re-analysis of the deposited data

How the results depend on the processing

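Of the counts of genes called, the 28 higher fell to 18 with only the arrays carrying HFD in Cy5 and to 16 in scan session 3 alone. The 37 lower fell to 17 with only probes in the mRNA direction, which leaves 61 genes. The median of the 96 genes, -0.02, moved to 0.0217 with those probes and to 0.0226 without reverse probes, alternatives chosen after seeing the data. The fit on 14 arrays also turned it positive (0.0158), and scan session 3 alone gave -0.0005. Under every other alternative run, both counts stayed within 1.5 times. Leaving out 1 animal at a time gave 25 to 29 higher, 34 to 38 lower and medians of -0.0335 to -0.0028. Across the 96 genes a called value changed sign, or a call came with the other sign, in these cases. With the mean of all kept probes they were EIF4EBP2 (-0.0213), IARS (-0.0969), EEF1G (-0.091), IARS2 (0.1155) and EEF1A2 (0.0218). With HFD in Cy5 only they were IARS (-0.0619), EIF3K (-0.0293), TARS2 (-0.0246), KARS (-0.0522), EEF1E1 (-0.149), EEF1G (-0.1031), GARS (0.1546), EIF2D (0.0623) and SARS (0.0068), and with HFD in Cy3 only RARS2 (-0.0719). On the 14 arrays they were IARS (-0.0086), EIF4E (0.1362), EIF6 (0.0148) and SARS (0.0188). With mRNA-direction probes they were LARS2 (-1.25, the second probe shown), EEF1A2 (0.0834) and EIF5B (0.011), and without reverse probes EEF1A2 (0.0292) and EEF1B2 (0.0364). The cause was not tested, other than fewer arrays or other probes by construction. Scan session 2, with 1 array, could not be fitted alone. No paired analysis was possible because the data hold 1 group of animals against 1 pool.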
